A study of Mus musculus with 10 samples.

Results

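The genes described here are the matrix metalloproteinases (MMPs), the ADAMTS proteases (a disintegrin and metalloproteinase with thrombospondin motifs) and the tissue inhibitors of metalloproteinases (TIMPs). They were taken by symbol from the gene counts of 10 WEHI 164 tumors: Mmp followed by a number and at most 1 letter, Adamts followed by a number, or Timp followed by 1 digit. This rule found 46 of the 35958 genes and unnamed features of the table, 23 of them MMPs, 19 ADAMTS proteases and 4 TIMPs. Of the 46, 34 had a CPM (counts scaled to a common library total) above 0.366 in 3 or more tumors, namely 17 MMPs, 14 ADAMTS proteases and 3 TIMPs. The other 12 did not pass this filter and are described at the end.

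WEHI 164 is a mouse fibrosarcoma line, and the tumors, labelled wild type, grew under the skin of female BALB/c mice. A piece of each tumor was removed at surgery before any drug was given, after which a hydrogel loaded with poly(I:C), a synthetic double-stranded RNA, was placed on what was left. The 5 responders (RS, tumors 5, 9, 10, 11 and 12) later regressed completely, and the 5 non-responders (NR, tumors 1, 2, 3, 6 and 7) grew without delay. The comparison therefore asks whether the untreated tumors of the 2 outcomes differed in these genes. Each tumor is 1 polyA RNA library from 1 mouse, with 16002778 to 31160578 estimated counts in responders and 19863697 to 28275958 in non-responders, and the experiment was done once with a single tumor line. All CPM values are after TMM scaling and are given in the tumor orders just listed. A fold change is that of responders over non-responders on the log2 scale, and adjusted p-values are from the edgeR quasi-likelihood test over all 15767 features past the filter.

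The pieces held the markers of a mesenchymal tumor together with host cells. Vim (vimentin) was between 4243 and 5619 CPM and Col1a1 between 797 and 1329 CPM, whereas of 8 epithelial genes, Epcam, Krt14 and Krt5 stayed at or below 0.361 CPM and Krt1 was at 0 in all 10 libraries. The other 4 passed the filter, with Dsp between 11.7 and 15.7 CPM, Cdh1 between 4.13 and 7.06, Krt10 between 2.29 and 3.67 and Trp63 between 1.36 and 4.1. Macrophage genes were abundant as well, with C1qa at or above 292 CPM in every tumor. In such a piece, fewer cells of a type and less RNA per cell cannot be told apart. For the proteases, 3 tumors stood apart from their groups: tumor 5 was low in Mmp12 and Mmp13 and tumor 11 high in Adamts2 among the responders, and tumor 1 was high in Mmp9 and Mmp19 among the non-responders. Results that rest on them are given with and without them.

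MMPs are zinc-dependent endopeptidases, made as inactive zymogens, that cut collagens, elastin, proteoglycans and many cell surface proteins. ADAMTS proteases are secreted relatives that trim procollagens, aggrecan, versican and von Willebrand factor. TIMPs bind the active site of these enzymes and block it, so the balance of protease and inhibitor sets how far a tissue is remodeled, and in tumors both come from malignant cells, fibroblasts and infiltrating leukocytes.

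The inhibitors Timp1 and Timp2 and 1 membrane protease led the family. Levels are compared between genes per kilobase of the longest annotated coding transcript (GENCODE vM21), as means over the 10 tumors. Timp1 was at 171 CPM per kb, Timp2 at 102 and Mmp14, the membrane-type protease MT1-MMP, at 99.9. The next levels were those of Mmp12, the macrophage metalloelastase, at 40.9 CPM per kb, Timp3 at 40.1, the collagenase Mmp13 at 27.4 and the gelatinase Mmp9 at 16.0. Within the groups, Timp1 was at 181 ± 24.1 CPM per kb in responders and 161 ± 21.3 in non-responders (± SD, 5 tumors each), above all other members by more than its spread. Timp2 and Mmp14 lay within 1 SD of each other in non-responders, at 104 ± 13.1 and 105 ± 13.8 CPM per kb. Mmp12 and Timp3 could not be ordered either, with Mmp12 at 50.6 ± 18.7 and 31.2 ± 17.8 CPM per kb in responders and non-responders. The highest ADAMTS protease was the procollagen N-proteinase Adamts14 at 13.2 CPM per kb, followed by the aggrecanase Adamts4 at 11.5 and by Adamts1 at 9.76. Adamts14, Adamts4, Mmp2, Mmp19, Adamts1 and Mmp11 lay between 13.2 and 9.23 CPM per kb with overlapping spreads (± SD) between neighbors in this order, except Adamts14 and Adamts4 in responders. The lowest members past the filter were Adamts8 at 0.0808 and Mmp17 at 0.0544 CPM per kb. With the median in place of the longest coding transcript, Timp2 was at 171 CPM per kb, level with Timp1 at 176, and Mmp12 was at 112, so the order among the leading genes depends on the transcript model.

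**Figure D1:**
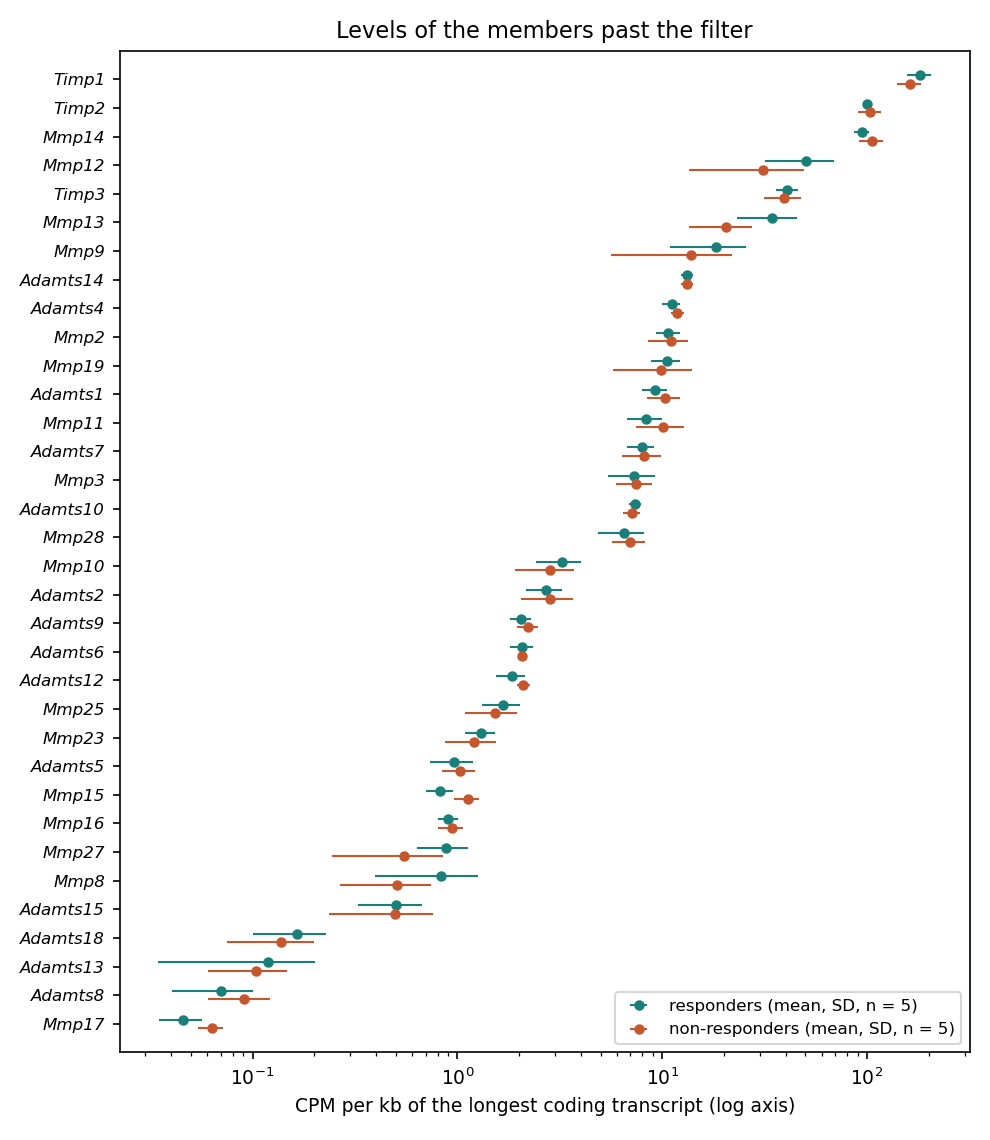
Level of each of the 34 members past the filter in CPM per kb of its longest coding transcript, on a log axis, as the mean and SD of 5 responders and of 5 non-responders. Timp1, Timp2 and Mmp14 lie at the top near 100 CPM per kb or above, and Mmp17 at the bottom; the widest spreads among the abundant genes are those of Mmp12, Mmp13 and Mmp9.

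Summed per kilobase over all members, the MMPs came to 209, 256, 276, 276 and 239 CPM per kb in responders and ranged from 186 (tumor 7) to 278 (tumor 1) in non-responders. The sums of the TIMPs were 309, 321, 325, 353 and 305 CPM per kb in responders and 345, 319, 317, 279 and 261 in non-responders. The ADAMTS sums were lower and steadier, between 56.6 and 67.3 CPM per kb in all 10 tumors. In each of the 3 sums the groups overlapped. Non-responder tumor 1 had the highest MMP sum of all at 278 CPM per kb, close to 276 in responder tumors 10 and 11. The sums were computed with the longest coding transcripts only, so this order could change with the transcript model. The genes also differed in how far they varied. Over the 10 tumors the coefficient of variation was 6.29% for Adamts14, 8.88% for Adamts4 and 9.32% for Timp2. It was 41.6% for Mmp13, 48.1% for Mmp9 and 48.9% for Mmp12.

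No member differed between responders and non-responders at an adjusted p under 0.05, and no feature of the whole table did (0% of 15767). At an unadjusted p under 0.05, 2 of the 34 members stood out, Mmp13 with the higher mean in responders and Mmp15 with the lower, beside 8.21% of all features (4.2% higher and 4% lower in responders). This share of the members is below that of all features. The means of 17 members were higher and of 17 lower in responders, beside 48.6% of all features with a higher mean. The median log2 fold change of the members was -0.016, and that of all features -0.0036. In no member did all 5 tumors of a group lie above all 5 of the other, which 0.926% of all features did. By family, 9 MMPs had a higher and 8 a lower mean (median 0.098), 6 ADAMTS proteases a higher and 8 a lower mean (median -0.050), and 2 TIMPs a higher and 1 a lower mean (median 0.052).

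The count at the unadjusted threshold depended on tumors 5 and 1. Without tumor 5 it was 9 members, with Mmp8, Mmp12, Mmp13, Mmp27 and Timp1 higher and Mmp11, Mmp14, Mmp15 and Adamts12 lower in responders, beside 13.6% of all features. Without tumor 1 it was also 9, with Mmp8, Mmp9, Mmp12, Mmp13, Mmp19, Mmp27 and Timp1 higher and Mmp11 and Mmp15 lower, beside 9.78% of all features. Without any 1 of the other 8 tumors it was 2 or 3, beside 5.34% (without tumor 11) to 9.06% (without tumor 3) of all features. Mmp13 separated the groups completely without tumor 5 (as 4.68% of features did), and Mmp17 and Mmp19 without tumor 1 (2.4% of features). Mmp15 did so without tumor 3 (2.61% of features). No member reached an adjusted p under 0.05 in any of these repeats, and the lowest was that of Mmp13 without tumor 5, at 0.0758.

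**Figure D2:**
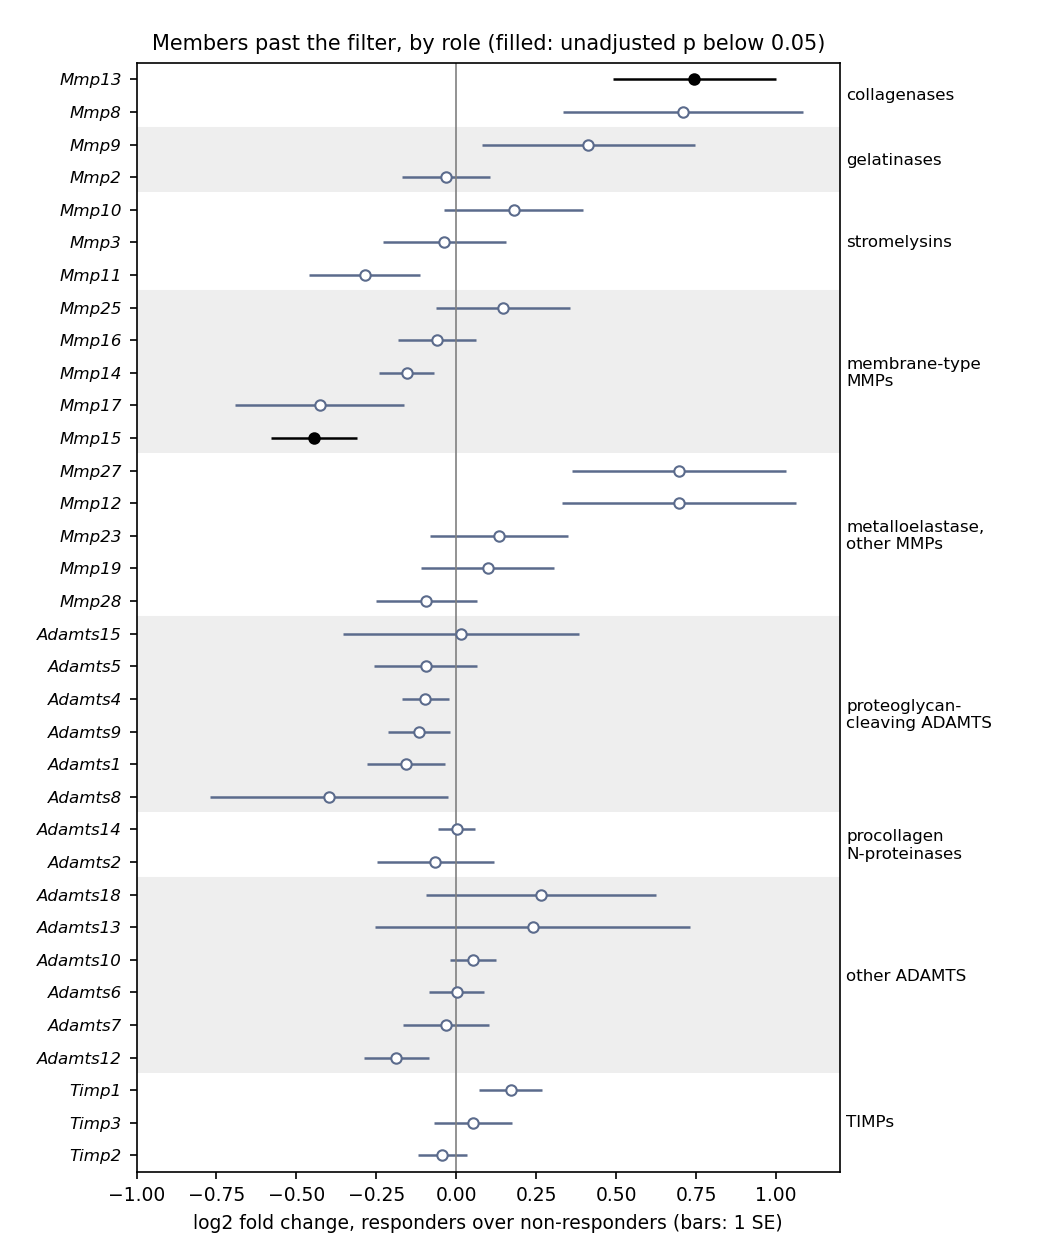
Log2 fold change, responders over non-responders, of the 34 members past the filter, grouped by role, with bars of 1 standard error and filled points for an unadjusted p under 0.05. Mmp13, Mmp8, Mmp27 and Mmp12 lie near 0.7 with wide bars, Mmp15 and Mmp17 lie near -0.4, and most ADAMTS proteases and TIMPs lie close to 0.

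The collagenases cut the intact triple helix of fibrillar collagen. Mmp13, collagenase-3 (ENSMUSG00000050578, chr9:7272514-7283331, GRCm38), had the largest log2 fold change of all members. In the responders it was at 42.4, 104, 99.8, 122 and 90.0 CPM and in the non-responders at 86.4, 52.3, 51.7, 38.9 and 44.2 CPM. Tumors 9, 10, 11 and 12 lay above every non-responder, while tumor 5 lay among the non-responders and tumor 1 stood well above the rest of its group. The means were 91.6 ± 29.8 CPM in the responders and 54.7 ± 18.6 CPM among non-responders (± SD, 5 tumors each), with a log2 fold change of 0.74 (SE 0.26, unadjusted p = 0.0122, adjusted p = 0.58). Without tumor 5 the log2 fold change was 0.93 (SE 0.19, unadjusted p = 0.000299, adjusted p = 0.0758), and without tumor 11 it was 0.62 (unadjusted p = 0.0352, adjusted p = 0.879). Without tumor 1 it was 0.97 (unadjusted p = 0.00137, adjusted p = 0.297).

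Mmp8, the collagenase best known from neutrophil granules (ENSMUSG00000005800), was low, with 12 to 85 counts a tumor. Its values were 1.17, 1.06, 3.45, 2.77 and 1.61 CPM in the responders and 2.07, 1.32, 0.604, 0.767 and 1.37 CPM among non-responders. Only tumors 10 and 11 exceeded all non-responders, and the other 3 responders lay within their range. Mmp8 had a log2 fold change of 0.71 (SE 0.37, unadjusted p = 0.0809, adjusted p = 0.644), which was 0.45 without tumor 10 (unadjusted p = 0.243). It was 0.97 without tumor 1 (unadjusted p = 0.0263, adjusted p = 0.431) and 0.86 without tumor 5 (unadjusted p = 0.0384, adjusted p = 0.33). Mmp1a and Mmp1b, the other genes listed here with the collagenases, reached at most 1 and 4 counts in any tumor.

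Mmp12 (ENSMUSG00000049723), which cuts elastin and is made chiefly by macrophages, was the most abundant secreted MMP per kilobase. It was at 66.4, 219, 217, 230 and 181 CPM in the responders and 215, 134, 86.8, 55.9 and 71.6 CPM among non-responders. Tumors 9, 10 and 11 lay above all non-responders, tumor 12 lay below tumor 1, and tumor 5 was lower than all non-responders but tumor 6. The comparison gave a log2 fold change of 0.70 (SE 0.37, unadjusted p = 0.0806, adjusted p = 0.644). It was 0.91 without tumor 5 (unadjusted p = 0.0111, adjusted p = 0.216) and 1.07 without tumor 1 (unadjusted p = 0.00705, adjusted p = 0.33), but 0.53 without tumor 6 (unadjusted p = 0.17). The 3′ end of Mmp12 overlaps Mmp1b on the other strand, and the strand setting of the counting was not given in the sources used here. Mmp27 (ENSMUSG00000070323) showed the same order of size at a far lower level, with 1.09, 1.44, 2.12, 2.21 and 1.53 CPM in the responders and 1.94, 0.50, 0.604, 0.948 and 1.21 CPM among non-responders. Its groups overlapped in the range of tumors 5, 9 and 12 and tumors 1 and 7, and its log2 fold change of 0.70 (SE 0.33, unadjusted p = 0.0577, adjusted p = 0.617) rested on 12 to 68 counts a tumor. This log2 fold change was 1.04 without tumor 1 (unadjusted p = 0.0048, adjusted p = 0.317) and 0.83 without tumor 5 (unadjusted p = 0.030, adjusted p = 0.309). Without tumor 2 it was 0.51 (unadjusted p = 0.134).

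**Figure D3:**
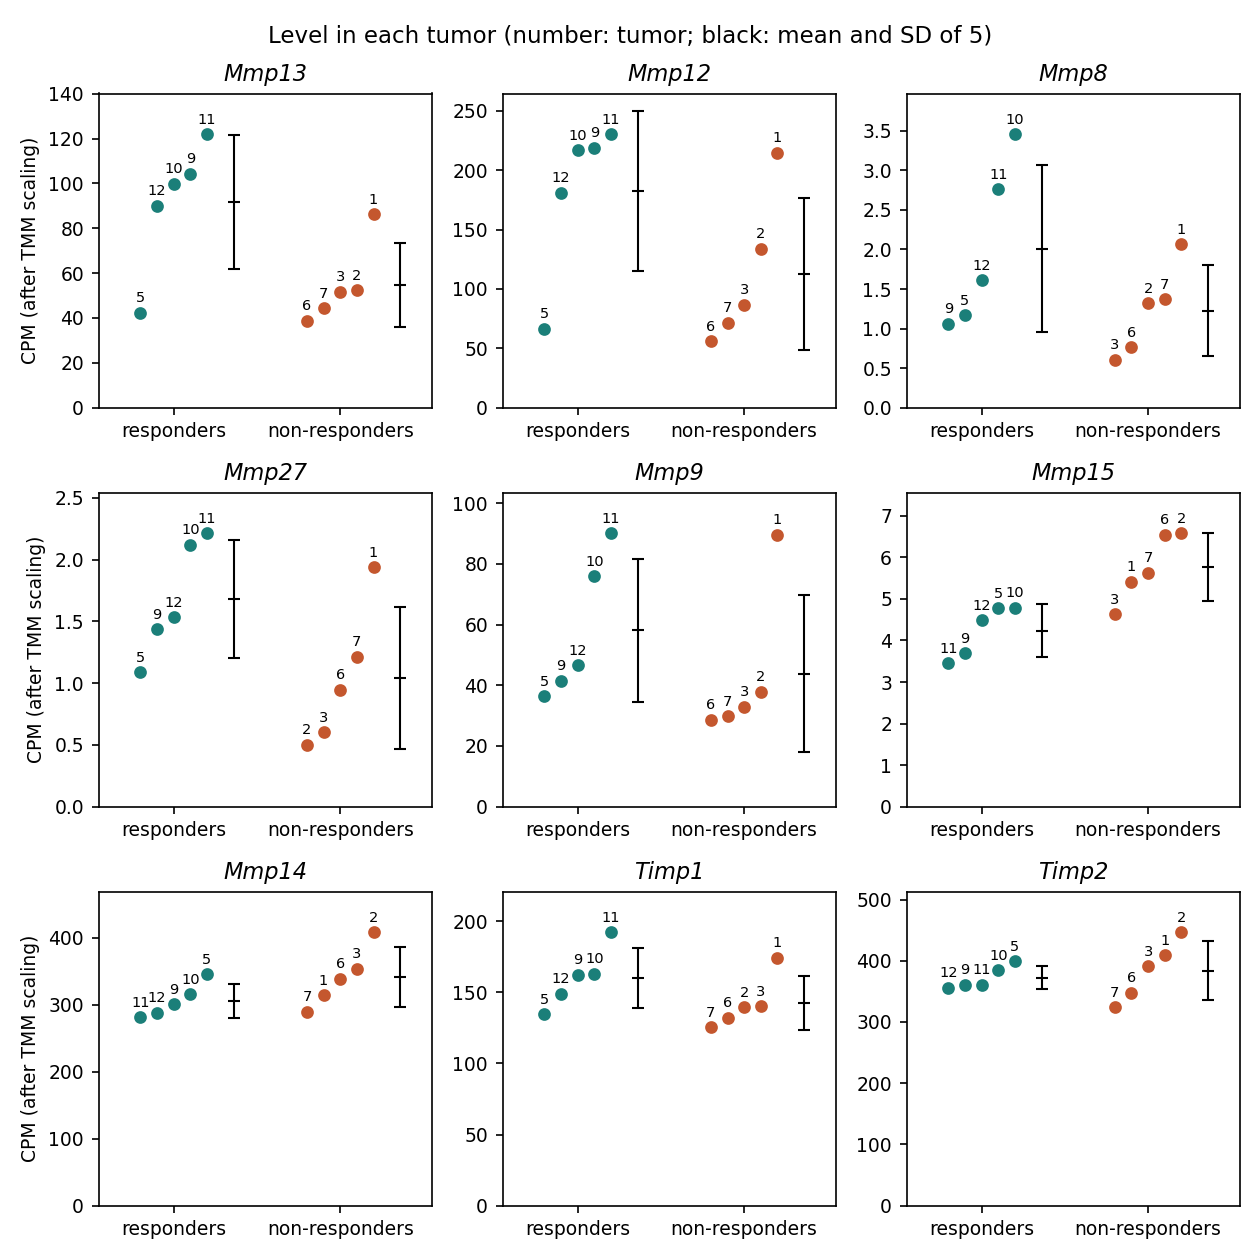
CPM of 9 members in each tumor, with the tumor's number above its point and the mean and SD of each group of 5 beside the points; each panel starts at 0 and has its own scale. Tumor 5 lies low in Mmp13 and Mmp12 among the responders, tumor 1 lies high in Mmp13, Mmp12, Mmp27, Mmp9 and Timp1 among the non-responders, and the groups overlap in every panel.

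Mmp13, Mmp12, Mmp8 and Mmp27 are neighbors. They belong to a run of 10 MMP genes on chromosome 9 that holds no other protein-coding gene, from Mmp13 to Mmp7 at chr9:7272514-7699585 (427 kb, GRCm38). This grouping was made after the values had been seen, so it was given no test. Of the 10, 6 passed the filter, and their log2 fold changes in genome order were 0.74 for Mmp13, 0.70 for Mmp12, -0.037 for Mmp3, 0.18 for Mmp10, 0.71 for Mmp8 and 0.70 for Mmp27. Their median was 0.70, beside -0.038 for the 28 members elsewhere. The neighbors did not all vary alike: tumor 11, the highest in Mmp13, Mmp12 and Mmp27, was the lowest of all in Mmp3.

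**Figure D4:**
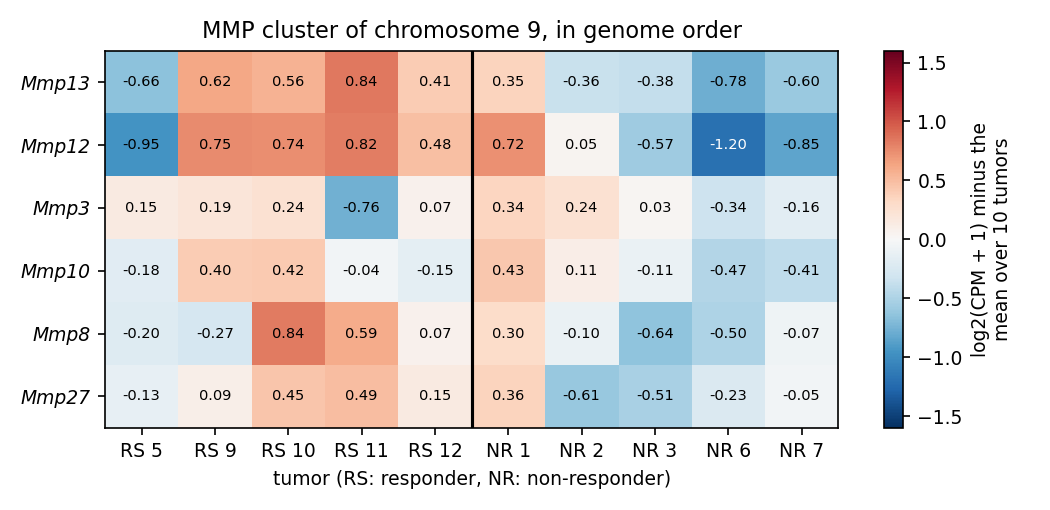
Values of the 6 members of the chromosome 9 run past the filter, in genome order, in each tumor, as log2(CPM + 1) minus the mean over the 10 tumors. Tumors 9, 10, 11 and 12 and tumor 1 are above the mean in Mmp13 and Mmp12, tumors 5, 3, 6 and 7 are below it, and tumor 11 is 0.76 below it in Mmp3.

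The promoters of this run also shared a short sequence that the choice of genes had not used. The letters TGANTCA, a pattern that reads alike on both strands and takes in the AP-1 site (TGACTCA or TGAGTCA), were searched in the 250 bases before each start in the RefSeq promoter table (GRCm38.p6), which held 32 of the 46 members. They were found in 8 of these 32 (25%), beside 7.82% of the 27025 genes in the table. All 8 belonged to the run on chromosome 9, where they were found in 8 of 10 members (Mmp3, Mmp7, Mmp10, Mmp12, Mmp13, Mmp20, Mmp1a and Mmp1b) and in 0 of the 22 members elsewhere. The middle letter was C or G, as in the AP-1 site, in 7 of the 8, beside 1395 of the 2113 genes of the table with the letters. As shares of all genes searched, these were 21.9% of the 32 members and 5.16% of the 27025 genes. Mmp20 had TGAATCA. For Mmp12 and Mmp7, which have 2 starts each in the table, they were found before 1 of the 2. The 100 bases before the start are printed for the 6 genes of the run that passed the filter, to show where the letters, in capitals, lie. Mmp8 and Mmp27 have none there, and the window of Mmp8 did not end in a GENCODE transcript of the gene.
Mmp13 (chr9:7272414-7272513, + strand): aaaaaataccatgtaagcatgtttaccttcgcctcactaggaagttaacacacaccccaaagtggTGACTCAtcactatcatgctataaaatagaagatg
Mmp12 (chr9:7347274-7347373, + strand): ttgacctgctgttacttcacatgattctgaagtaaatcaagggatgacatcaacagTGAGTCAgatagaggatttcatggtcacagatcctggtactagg
Mmp3 (chr9:7445722-7445821, + strand): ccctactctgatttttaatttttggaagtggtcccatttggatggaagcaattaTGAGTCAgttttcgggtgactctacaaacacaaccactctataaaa
Mmp10 (chr9:7502242-7502341, + strand): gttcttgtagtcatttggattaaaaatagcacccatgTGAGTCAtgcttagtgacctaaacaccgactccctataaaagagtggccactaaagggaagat
Mmp8 (chr9:7558329-7558428, + strand): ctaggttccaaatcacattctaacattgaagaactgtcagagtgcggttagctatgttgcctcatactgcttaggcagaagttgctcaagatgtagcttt
Mmp27 (chr9:7571296-7571395, + strand): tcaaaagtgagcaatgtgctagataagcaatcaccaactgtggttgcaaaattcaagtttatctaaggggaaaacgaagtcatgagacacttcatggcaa
The first base of the letters lay 35 bases before the start in Mmp13, 44 in Mmp12, 46 in Mmp3 and 63 in Mmp10. Any relation of these letters to the log2 fold changes was not tested. A match of letters is a description of the sequence, and nothing about a factor's binding was measured.

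The gelatinases cut denatured collagen and basement membrane collagen. Mmp9, gelatinase B (ENSMUSG00000017737), was at 36.5, 41.5, 75.9, 90.0 and 46.5 CPM in the responders and 89.7, 37.9, 32.9, 28.6 and 29.8 CPM among non-responders. Its level fell into 2 sets that crossed the groups, with tumors 10, 11 and 1 between 75.9 and 90.0 CPM and the other 7 between 28.6 and 46.5 CPM. Over all tumors Mmp9 had a log2 fold change of 0.41 (SE 0.33, unadjusted p = 0.237, adjusted p = 0.761). Without tumor 1 this was 0.85 (SE 0.24, unadjusted p = 0.00439, adjusted p = 0.317), and without tumor 11 it was 0.20 (unadjusted p = 0.562, adjusted p = 0.957). Mmp2, gelatinase A (ENSMUSG00000031740), behaved otherwise. It was at 35.2, 27.7, 35.2, 37.8 and 29.0 CPM in the responders and 31.9, 27.1, 27.2, 44.0 and 38.9 CPM among non-responders, so no responder lay outside the non-responders. Mmp2 had a log2 fold change of -0.032 (SE 0.14, unadjusted p = 0.816, adjusted p = 0.973).

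Of the stromelysins, Mmp11 (ENSMUSG00000000901), which is activated inside the cell by furin, had a lower mean in responders. Its values were 24.0, 18.9, 17.4, 14.1 and 20.8 CPM in the responders and 16.4, 32.5, 25.5, 20.9 and 20.7 CPM among non-responders, and only tumor 11 lay below all non-responders. It had a log2 fold change of -0.29 (SE 0.17, unadjusted p = 0.122, adjusted p = 0.69). This was -0.39 without tumor 1 (unadjusted p = 0.0331) and -0.13 without tumor 2 (unadjusted p = 0.401), and the gene overlaps Chchd10 on the other strand. Mmp3 and Mmp10, which cut a wide range of matrix proteins and activate other MMPs, are given here as members of the chromosome 9 run and were chosen after their values had been seen. Mmp3 was at 14.4, 14.9, 15.5, 7.22 and 13.6 CPM in the responders and 16.6, 15.5, 13.3, 10.1 and 11.5 CPM among non-responders. Mmp10 was at 4.35, 7.0, 7.11, 4.88 and 4.45 CPM and 7.17, 5.54, 4.63, 3.38 and 3.56 CPM. Apart from the low Mmp3 of tumor 11, no responder lay outside the non-responders in either gene.

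The membrane-type MMPs act at the cell surface, and 4 of the 5 past the filter had a lower mean in responders (median log2 fold change -0.15). Mmp15, MT2-MMP (ENSMUSG00000031790, chr8:95352268-95375080), had the smallest unadjusted p of all members. It was at 4.78, 3.69, 4.79, 3.45 and 4.49 CPM in the responders and 5.41, 6.58, 4.63, 6.54 and 5.63 CPM among non-responders. Tumors 1, 2, 6 and 7 lay above every responder, and tumor 3 lay just below tumors 5 and 10. The means were 4.24 ± 0.628 CPM in the responders and 5.76 ± 0.820 CPM among non-responders (± SD, 5 tumors each), with a log2 fold change of -0.44 (SE 0.13, unadjusted p = 0.00561, adjusted p = 0.58). Over all alternatives the log2 fold change stayed between -0.51 and -0.37 and the adjusted p between 0.164 and 0.879.

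Mmp14, MT1-MMP (ENSMUSG00000000957), which cuts collagen at the cell surface and activates the Mmp2 zymogen, was at 345, 301, 315, 281 and 288 CPM in the responders and 314, 408, 354, 339 and 289 CPM among non-responders. Tumors 11 and 12 lay just below all non-responders and tumors 2 and 3 above all responders, with the other 6 intermixed. Mmp14 had a log2 fold change of -0.15 (SE 0.085, unadjusted p = 0.0925, adjusted p = 0.659), which was -0.082 without tumor 2 (unadjusted p = 0.282). It was -0.21 without tumor 7 (unadjusted p = 0.0246, adjusted p = 0.839) and -0.20 without tumor 5 (unadjusted p = 0.0372, adjusted p = 0.33). Mmp17 (MT4-MMP, anchored to the membrane by a lipid) was near the limit of detection, at 0.272, 0.188, 0.345, 0.358 and 0.307 CPM in the responders and 0.308, 0.429, 0.453, 0.406 and 0.43 CPM among non-responders. The 3 to 12 counts behind each of these values gave a log2 fold change of -0.43 (SE 0.26, unadjusted p = 0.183, adjusted p = 0.728). The remaining members of the class past the filter, Mmp16 and Mmp25, had log2 fold changes of -0.061 (SE 0.12) and 0.15 (SE 0.21).

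Among the other MMPs, Mmp19 (ENSMUSG00000025355) was set apart by 1 non-responder. It was at 31.4, 31.6, 38.2, 44.8 and 33.0 CPM in the responders and 58.3, 25.4, 29.0, 28.6 and 26.5 CPM among non-responders. Tumor 1 had the highest value of all 10, and the other 4 non-responders lay below all responders. Mmp19 had a log2 fold change of 0.098 (SE 0.21, unadjusted p = 0.644, adjusted p = 0.926), and without tumor 1 a log2 fold change of 0.39 (SE 0.10, unadjusted p = 0.00271, adjusted p = 0.307). Without tumor 11 it was 0.0056 (unadjusted p = 0.98) and without tumor 2 it was 0.011 (unadjusted p = 0.958). Its gene overlaps Tmem198b on the other strand. Mmp28 (epilysin) and Mmp23 had log2 fold changes of -0.094 (SE 0.16) and 0.13 (SE 0.22).

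The proteoglycan-cleaving ADAMTS proteases cut aggrecan, versican and brevican, and 5 of the 6 past the filter had a lower mean in responders (median log2 fold change -0.11), none at an unadjusted p under 0.05. Adamts4 (ENSMUSG00000006403) was at 52.2, 54.9, 48.3, 46.0 and 42.8 CPM in the responders and 51.1, 56.9, 52.5, 53.7 and 46.3 CPM among non-responders, with a log2 fold change of -0.096 (SE 0.073, unadjusted p = 0.211, adjusted p = 0.749). Adamts1 (ENSMUSG00000022893) was at 47.8, 54.4, 41.9, 37.6 and 43.7 CPM in the responders and 42.4, 58.9, 61.4, 44.8 and 43.5 CPM among non-responders, with a log2 fold change of -0.16 (SE 0.12, unadjusted p = 0.216, adjusted p = 0.751), or -0.076 without tumor 3. Tumor 9 was the highest responder in both genes, tumor 2 was among the highest 2 non-responders in both, and the groups overlapped widely. Adamts5 and Adamts9 had log2 fold changes of -0.096 (SE 0.16) and -0.12 (SE 0.096), Adamts15 of 0.015 (SE 0.37) and Adamts8, at under 0.5 CPM, of -0.40 (SE 0.37).

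The procollagen N-proteinases remove the amino-terminal propeptide of fibrillar procollagens. Adamts14 (ENSMUSG00000059901), the most abundant ADAMTS protease, was also the steadiest member, at 68.9, 66.5, 63.5, 75.8 and 67.3 CPM in the responders and 73.9, 68.3, 70.8, 67.6 and 61.5 CPM among non-responders. Its means were 68.4 ± 4.57 and 68.4 ± 4.55 CPM (± SD, 5 tumors each), and it had a log2 fold change of 0.0013 (SE 0.059, unadjusted p = 0.983, adjusted p = 0.999). Adamts2 (ENSMUSG00000036545) varied more, at 17.0, 17.1, 18.7, 26.5 and 19.1 CPM in the responders and 22.8, 15.1, 14.1, 27.9 and 23.4 CPM among non-responders. Tumor 11 stood above the other responders, tumors 2 and 3 were the lowest of all 10, and the gene had a log2 fold change of -0.066 (SE 0.18, unadjusted p = 0.724, adjusted p = 0.948), or -0.20 without tumor 11 (unadjusted p = 0.28) and 0.068 without tumor 6 (unadjusted p = 0.704).

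Of the other ADAMTS proteases, Adamts12 (ENSMUSG00000047497), which cuts cartilage oligomeric matrix protein as Adamts7 does, was at 19.3, 15.1, 13.8, 13.4 and 17.4 CPM in the responders and 18.1, 18.4, 19.4, 15.9 and 18.4 CPM among non-responders. Tumors 9, 10 and 11 lay below all non-responders, while tumors 5 and 12 lay among them. Adamts12 had a log2 fold change of -0.19 (SE 0.10, unadjusted p = 0.0868, adjusted p = 0.653), and without tumor 5 a log2 fold change of -0.27 (unadjusted p = 0.0116, adjusted p = 0.218) and without tumor 11 of -0.13 (unadjusted p = 0.227). Adamts7 (ENSMUSG00000032363) was at 40.7, 52.7, 43.3, 34.7 and 42.6 CPM in the responders and 38.9, 59.0, 45.6, 38.5 and 36.1 CPM among non-responders, and Adamts10 (ENSMUSG00000024299), a microfibril-associated member, at 31.2, 31.5, 31.4, 27.0 and 28.5 CPM and 25.2, 31.6, 31.4, 27.9 and 28.0 CPM. In Adamts7 tumor 11 lay below all non-responders and tumor 2 above all responders, with the other 8 intermixed, and in Adamts10 no responder lay outside the non-responders. The comparison gave a log2 fold change of -0.033 (SE 0.13, unadjusted p = 0.81, adjusted p = 0.972) for Adamts7 and a log2 fold change of 0.052 (SE 0.072, unadjusted p = 0.486, adjusted p = 0.877) for Adamts10. The gene of Adamts7 overlaps Tbc1d2b on the other strand. Adamts6, Adamts13 (which cuts von Willebrand factor) and Adamts18 had log2 fold changes of 0.0014 (SE 0.085), 0.24 (SE 0.49) and 0.26 (SE 0.36).

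Of the inhibitors, Timp1 (ENSMUSG00000001131), which blocks most secreted MMPs and also binds the Mmp9 zymogen, was at 135, 162, 163, 192 and 149 CPM in the responders and 174, 139.6, 140.2, 132 and 126 CPM among non-responders. The responders except tumor 5 lay above the non-responders except tumor 1, and tumor 11 had the highest value of all. Timp1 had a log2 fold change of 0.17 (SE 0.099, unadjusted p = 0.11, adjusted p = 0.68). This was 0.23 without tumor 5 (unadjusted p = 0.0315) and 0.25 without tumor 1 (unadjusted p = 0.0126), with adjusted p of 0.313 and 0.354, but 0.099 without tumor 11 (unadjusted p = 0.296). Its gene overlaps Syn1 on the other strand.

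Timp2 (ENSMUSG00000017466), which blocks MMPs and, bound to Mmp14, presents the Mmp2 zymogen for activation, was at 399, 361, 384, 361 and 356 CPM in the responders and 409.5, 446, 391, 348 and 324 CPM among non-responders. Timp3 (ENSMUSG00000020044), which stays bound to the matrix and also blocks ADAM17 and several ADAMTS proteases, was at 233, 191, 174, 178 and 188 CPM in the responders and 175, 194, 247, 168 and 147 CPM among non-responders. For both, no responder lay outside the span of the non-responders. Timp2 had a log2 fold change of -0.044 (SE 0.077, unadjusted p = 0.58, adjusted p = 0.907) and Timp3 a log2 fold change of 0.052 (SE 0.12, unadjusted p = 0.675, adjusted p = 0.934). The gene of Timp3 overlaps Syn3 on the other strand, and that of Timp2 overlaps Cep295nl on the same strand, so their counts could be split. Timp4 reached at most 2 counts in any tumor.

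Across the tumors, 8 pairs were compared on log2(CPM + 1), with p-values from permutation tests adjusted over the 8. Of these, 7 join members known as enzyme and inhibitor, as activator and zymogen or as enzymes of a shared substrate, and the last joins Mmp9 with the mean of the granulocyte markers. Over all 10 tumors, 3 of the 8 had an adjusted p under 0.05. Mmp9 and its inhibitor Timp1 had Pearson's r = 0.92 (permutation p = 0.0001, adjusted p = 0.0008) and Spearman's rho = 0.94 (permutation p = 0.00022), with a within-group r of 0.91 (permutation p = 0.00025) and r = 0.82 without tumors 11 and 1 (exact permutation p = 0.0059). Mmp9 and the granulocyte markers had r = 0.87 (permutation p = 0.00146, adjusted p = 0.00584) and rho = 0.82 (permutation p = 0.00598), with a within-group r of 0.86 (permutation p = 0.00206) and r = 0.79 without tumors 11 and 1 (exact permutation p = 0.0249). By ranks the within-group value was 0.62 (permutation p = 0.0601), and that without tumors 11 and 1 was 0.67 (exact permutation p = 0.0831).

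Since Mmp9 fell into separate levels, a value over all tumors holds the gap between the 2 sets, and its pairs were also computed within the 7 tumors of lower Mmp9, a choice made after the data had been seen. There, Mmp9 and Timp1 had r = 0.79 (exact permutation p = 0.0331) and rho = 0.82 (exact permutation p = 0.0341), and Mmp9 and the granulocyte markers r = 0.43 (exact permutation p = 0.341) and rho = 0.50 (exact permutation p = 0.267). The 3 tumors of higher Mmp9, tumors 10, 11 and 1, had Timp1 at 163, 192.0 and 174 CPM, above all of the other 7 tumors. With these values in place of those over all tumors, no pair had an adjusted p under 0.05, the lowest being 0.0884. Mmp14 with Timp2 was not recomputed and kept its permutation p of 0.0115 over all 10 tumors. Its adjusted p rose from 0.0306 to 0.0884 only through the adjustment over the 8, because the p-values of the Mmp9 pairs were higher.

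Mmp14 and Timp2 had r = 0.75 over the 10 tumors (permutation p = 0.0115, adjusted p = 0.0306) and rho = 0.60 (permutation p = 0.0723). Within groups this r was 0.78 (permutation p = 0.00826) and rho 0.59 (permutation p = 0.0793), and without tumors 2 and 3, those farthest from the median of Mmp14, it was 0.48 (exact permutation p = 0.234), so the relation rests on these tumors. Adamts1 and Adamts4 had r = 0.70 (permutation p = 0.0251, adjusted p = 0.0502), rho = 0.75 (permutation p = 0.0172), a within-group r of 0.66 (permutation p = 0.0436) and rho of 0.62 (permutation p = 0.0609), and r = 0.64 without tumors 2 and 3 (exact permutation p = 0.0824). Mmp2, the substrate of the Mmp14 and Timp2 complex, had r = -0.32 with Mmp14 (permutation p = 0.373, adjusted p = 0.497) and r = -0.55 with Timp2 (permutation p = 0.102, adjusted p = 0.163), with rho of -0.42 and -0.61 (permutation p = 0.231 and 0.0667). Within groups these r were -0.38 and -0.56, and without tumors 6 and 2 they were -0.34 and -0.29. Mmp3 had r = -0.044 with Mmp13 (permutation p = 0.911) and -0.17 with Timp1 (permutation p = 0.656), with rho of 0.16 and 0.26 (permutation p = 0.66 and 0.469). Without tumors 11 and 6 these r were 0.52 (exact permutation p = 0.184) and 0.78 (exact permutation p = 0.0185), so the sign rests on these tumors.

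**Figure D5:**
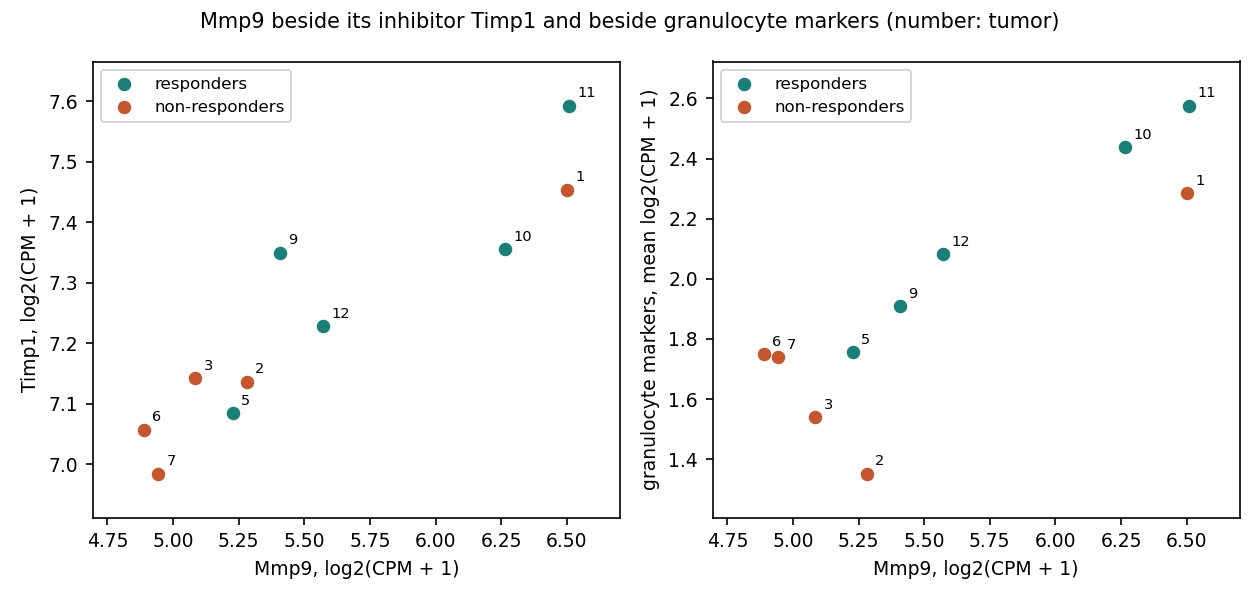
Mmp9 on the x axis beside Timp1 (left) and beside the mean of 5 granulocyte markers (right), all as log2(CPM + 1), 1 point per tumor with the tumor's number and the color of its group. Tumors 10, 11 and 1 form a separate set at high Mmp9, with high Timp1 and high granulocyte markers, and the other 7 tumors spread along Timp1.

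The wider protease network gave 53 more genes, of which 42 passed the filter. None of these was called after adjustment, and 6 were below 0.05 without it, 3 with a higher and 3 with a lower mean in responders, beside the same 8.21% of all features. Of the list of other inhibitors and clearance genes, 7 passed the filter, all with a lower mean in responders (median log2 fold change -0.20). Not every gene of this list is an MMP inhibitor. Spock2, a matrix proteoglycan, had a log2 fold change of -0.47 (SE 0.16, unadjusted p = 0.0123, adjusted p = 0.58), and the serpin Serpine2, a blocker of serine proteases, a log2 fold change of -0.36 (SE 0.14, unadjusted p = 0.0213, adjusted p = 0.586). The third at this threshold was A2m, the plasma protease trap, with -0.64 (SE 0.28, unadjusted p = 0.0417, adjusted p = 0.597), which was chosen after its value was seen.

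Of the activators of MMP zymogens, 11 passed the filter, 8 with a higher and 3 with a lower mean in responders (median log2 fold change 0.066). Plaur, the urokinase receptor, was at 114, 139, 133, 153 and 126 CPM in the responders and 133, 111, 108, 104 and 90.0 CPM among non-responders, with a log2 fold change of 0.28 (SE 0.097, unadjusted p = 0.0119, adjusted p = 0.58). Cma1, the mast cell chymase, was at 37.3, 35.2, 42.6, 59.7 and 50.4 CPM and 48.2, 25.1, 35.5, 28.8 and 26.5 CPM, with a log2 fold change of 0.46 (SE 0.18, unadjusted p = 0.0251, adjusted p = 0.586). In Plaur only tumor 1 among the non-responders reached the range of the responders, and in Cma1 only tumors 1 and 3 did.

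Of the ADAM proteases, 10 passed, 5 higher and 5 lower (median log2 fold change -0.011). Adam17, the sheddase that releases tumor necrosis factor, was at 110.5, 141, 123, 121 and 121 CPM in the responders and 116, 103, 114, 98.9 and 101 CPM among non-responders, with a log2 fold change of 0.21 (SE 0.066, unadjusted p = 0.00809, adjusted p = 0.58). The groups overlapped only in that tumor 5 lay below tumors 1 and 3. Adam12 had a log2 fold change of -0.12 (SE 0.061, unadjusted p = 0.0691, adjusted p = 0.626). The cathepsins and other matrix proteases (9 past the filter, 5 higher and 4 lower, median 0.13) had their smallest p-values in Ctss, a cathepsin of antigen-presenting cells, with a log2 fold change of 0.33 (SE 0.17, unadjusted p = 0.0669, adjusted p = 0.623), and Ctsb with a log2 fold change of 0.20 (SE 0.10, unadjusted p = 0.0696, adjusted p = 0.626). The ADAMTS-like proteins, which lack the protease domain, had a median of 0.014 over 5 genes, with 0.073 (SE 0.069) for Adamtsl4 and 0.18 (SE 0.34) for Adamtsl1.

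Markers of host cells known to make some of these proteases were read in the same libraries. Of 10 granulocyte markers 5 passed the filter. Of the defining granule genes Elane was at 0 in every tumor, Ngp reached at most 2 counts, Camp 8 and Mpo 10, and the surface marker Ly6g at most 2. Their summed level was 20.8, 27.6, 41.0, 51.3 and 28.0 CPM in the responders and 32.4, 15.0, 20.2, 23.6 and 20.2 CPM among non-responders, of which Csf3r alone, the receptor for the granulocyte growth factor, made up 66.2 to 77.6%. Tumors 10, 11 and 1, those of high Mmp9, had the highest granulocyte sums. All 10 macrophage markers passed, and their sum was 1446, 1727, 1740, 1980 and 1549 CPM in the responders and 1822, 1350, 1564, 1451 and 1392 CPM among non-responders. The 9 markers of T and NK cells found in the table came to 23.2, 84.8, 100.2, 162 and 87.6 CPM in the responders and 63.0, 21.1, 32.0, 58.8 and 31.7 CPM among non-responders, with Gzma the most abundant. Tumor 5, low in Mmp12 and Mmp13, was the lowest responder in the macrophage, granulocyte and T and NK sums. Mast cell markers, 6 of 6 past the filter and led by Tpsb2, came to 197, 192, 236, 322 and 269 CPM in the responders and 257, 145, 193, 156 and 146 CPM among non-responders, highest in tumor 11 as Cma1 was. The part of these cells in the protease levels was not tested.

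As means of log2(CPM + 1) over the markers past the filter, the responders were higher by 0.13 for macrophages (exact two-sided permutation p = 0.175), 0.42 for granulocytes (exact p = 0.0952), 0.48 for T and NK cells (exact p = 0.167) and 0.38 for mast cells (exact p = 0.0794). The endothelial markers differed by -0.17 (exact p = 0.0556) and the fibroblast and mesenchymal markers by -0.0091 (exact p = 0.913). Pericyte, epithelial, adipocyte and skeletal muscle markers differed by -0.026, 0.15, -0.22 and -0.34 (exact p = 0.786, 0.111, 0.444 and 0.222). None of the 10 lists reached an adjusted p under 0.05, the lowest being 0.278.

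The 12 members that did not pass the filter were 6 MMPs (Mmp1a, Mmp1b, Mmp7, Mmp20, Mmp21 and Mmp24), 5 ADAMTS proteases (Adamts3, Adamts16, Adamts17, Adamts19 and Adamts20) and Timp4. Mmp7, Mmp1a and Mmp21 reached at most 1 count in any tumor, Mmp20 and Timp4 at most 2, Mmp1b and Adamts3 at most 4 and Mmp24 at most 5. Adamts20 reached at most 6 counts, Adamts16 and Adamts19 at most 9 and Adamts17 at most 10. Fitted without the filter, none of the 12 had an unadjusted p under 0.05. At this depth no difference between the groups was detectable in these genes, and Mmp1a and Mmp1b, which resemble each other, may share reads.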

How the data were processed

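Per the labels, polyA RNA of tumor pieces was sequenced as 150 bp paired ends. The authors estimated transcript abundance with Kallisto, summed it to genes with tximport on GRCm38 and deposited estimated counts per gene, not scaled for depth or length; the annotation release is not given in the sources used here. Rows of 1 name were summed (44 names on more than 1 row, none of a member), the 9580 rows without a name (1.20 to 1.49% of the counts) were kept, and counts were rounded. All 10 columns were mapped to tumors by their labels.

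Features with CPM above 0.366 in 3 or more tumors were fitted with edgeR 4.0.16 (quasi-likelihood, TMM, Benjamini-Hochberg over 15767 features, R 4.3.3). The DESeq2 1.42.0 Wald test and voom of limma 3.58.1 were run beside it. SE was obtained by dividing the log2 fold change by the root of the F statistic. The biological coefficient of variation was 10.4%, and counting error adds to it in genes of few counts. On simulated data of this design, changes were set only in features of a mean above 1 CPM, drawn from the whole table. Of these, 93% of 2-fold and 99% of 4-fold changes were called, as were 8 unchanged features. These shares are not the power for a member as variable as Mmp12 (coefficient of variation 48.9%). Nor do they cover Adamts18, Adamts13, Adamts8 and Mmp17, whose means lay below 1 CPM. Tumor numbers do not recur between groups, so no block was fitted. Responder tumors 9, 10, 11 and 12 are numbered after every non-responder, and only responder tumor 5 is numbered among them. What the numbers stand for is not given. Outcome and any effect of sample order therefore cannot be told apart for those tumors. Other alternatives were scaling, filter, named rows only, pseudocount, ranks and leaving out each tumor. Pairs and marker lists were tested with permutations (100000, or all where fewer than 10 values) in Python with numpy and scipy.

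Genes were named in full by a rule: all TIMPs, the 6 MMPs and 6 ADAMTS proteases of highest mean CPM, the 5 members of smallest unadjusted p in each direction, both gelatinases, and of each list of other protease genes the 2 of smallest unadjusted p. The members, lists and pairs were chosen with earlier results of these data known. Coordinates and transcript lengths are those of GENCODE vM21, promoters those of RefSeq (GRCm38.p6), of whose 35 windows of members 30 ended in a GENCODE transcript of the gene. Levels per kb used the longest coding transcript, a choice made after values had been seen. Protein sequences were not used here, and not every overlap of a member with another gene is reported.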

Additional observations from a re-analysis of the deposited data

Results flagged for a closer look

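The 21 members named by the rule that passed the filter and the 10 marker lists were searched for a tumor far from the other 4 of its group, in 62 group tests in all. About 1 in 20 such tests is met by chance, or 3.1 of 62, and 5 were met. All 5 values are log2(CPM + 1).

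Mmp12 was at 6.08 in responder tumor 5 and between 7.51 and 7.85 in the other responders. Mmp13 was at 5.44 in the same tumor and between 6.51 and 6.94 in the others. Mmp9 was at 6.50 in non-responder tumor 1 and between 4.89 and 5.28 in the other non-responders. Mmp19 was at 5.89 in the same tumor and between 4.73 and 4.91 in the others. Adamts2 was at 4.78 in responder tumor 11 and between 4.17 and 4.33 in the other responders. The macrophage, granulocyte and T and NK marker sums of tumor 5 were the lowest of the responders, and those of tumor 1 the highest of the non-responders. Their part in these values was not tested.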

How the results depend on the processing

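No member reached an adjusted p under 0.05 under any alternative tried. Over the whole table, DESeq2 called 1 feature, and leaving out each tumor called 0 to 9 (9 without tumor 5), none of them a member. Members with an unadjusted p under 0.05 numbered 2 with edgeR (beside 8.21% of all features) and with DESeq2 (7.9%), 3 with limma-voom (8.44%), 4 without a filter on low counts (6.78%), and 2 to 9 when each tumor was left out (9 without tumor 5, beside 13.6%, and 9 without tumor 1, beside 9.78%). Members whose groups do not overlap numbered 0 to 2 when each tumor was left out. They numbered 1 without tumor 5 (beside 4.68% of all features), 2 without tumor 1 (2.4%) and 1 without tumor 3 (2.61%). Other protease genes with an unadjusted p under 0.05 numbered 6 of 42 with edgeR, and from 3 (without tumor 7, beside 5.94% of all features) to 12 (without tumor 5, beside 13.6%).

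Leaving out each tumor changed the sign of log2 fold changes near 0, over -0.035 to 0.030 for Adamts14, -0.20 to 0.068 for Adamts2, -0.11 to 0.10 for Adamts7, -0.027 to 0.34 for Adamtsl1, -0.10 to 0.083 for Mmp2, -0.12 to 0.13 for Mmp3, -0.097 to 0.016 for Timp2 and -0.022 to 0.18 for Timp3. Of log2 fold changes that kept their sign, those of Adamts10 (0.0072 to 0.092), Adamtsl4 (0.026 to 0.099), Mmp10 (0.077 to 0.36), Adamts4 (-0.13 to -0.052), Adam12 (-0.14 to -0.069) and Ctss (0.22 to 0.46) also moved by over 1.5 times. So did those of Mmp9 (0.20 to 0.85), Mmp19 (0.0056 to 0.39), Mmp8 (0.45 to 0.97), Mmp12 (0.53 to 1.07), Mmp11 (-0.39 to -0.13), Mmp14 (-0.21 to -0.082), Adamts1 (-0.23 to -0.076) and Timp1 (0.099 to 0.25). Of the 8 pairs, 3 had an adjusted p under 0.05 with all 10 tumors, and 0 with the pairs of Mmp9 taken within the 7 tumors of lower Mmp9 (r = 0.79 with Timp1 and 0.43 with the granulocyte markers), a choice made after seeing the data. Mmp14 with Timp2 was not recomputed there, and only its adjustment changed. With ranks, Mmp14 with Timp2 had an adjusted p of 0.116 and Adamts1 with Adamts4 one of 0.0459. Ranks turned the sign of Mmp3 with Mmp13 (rho 0.16) and of Mmp3 with Timp1 (rho 0.26). The cause of the other changes was not tested.

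No paired analysis was possible because the tumor numbers do not recur between the groups. With 5 tumors a group, 1 tumor line and 1 experiment, the simulated check covered only 2-fold and 4-fold changes in features of a mean above 1 CPM. Members of few counts carry counting error besides, and RNA levels give neither protein nor enzyme activity.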
